A study of Rattus norvegicus with 372 samples.

Results

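Albumin, transthyretin and the transcription factors that set hepatocyte identity were followed in cultured rat hepatocytes after exposure to 14 chemicals. The set was defined as 9 genes, Alb, Ttr, Hnf4a, Cebpa, Foxa1, Foxa2, Foxa3, Onecut1 and Prox1, taken by gene name without regard to case, and 8 of them had a probe among the 20946 genes of the whole transcriptome assay. Foxa2 is not analysed here. Primary hepatocytes of male Wistar rats were kept between layers of collagen (collagen sandwich) in medium holding bovine serum albumin, insulin, glutamine, dexamethasone and EGF, and were exposed for 24 h in 0.5% DMSO to Acetaminophen, Caffeine, Chloramphenicol, Diclofenac, Doxorubicin, Indomethacin, Isoniazid, Ketoconazole, Naproxen, Ranitidine, Simvastatin, Sulfasalazine, valproic acid (labelled Valproic) or WY14643, each at 2 concentrations, giving 28 treatments. Controls were DMSO vehicle and culture medium alone. RNA was measured by TempO-Seq, in which pairs of detector oligonucleotides are ligated on a target RNA and counted by sequencing, with a whole transcriptome probe set (WT) and with the smaller S1500+ set (ST), whose 2604 genes included 5 of the members.

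The experiment was done in 2 batches, each with the hepatocytes of 1 rat, and each treatment had 3 wells in each batch. Vehicle and medium had 3 wells each in batch 1 and 6 each in batch 2. Wells of a batch are therefore technical replicates of 1 animal, and p-values measure the spread between wells and the 2 animals only. In batch 1 all vehicle wells stood on 1 of the 2 plates. For treatments on the other plate, the plate and the treatment cannot be told apart in that batch. Those treatments were Acetaminophen, Chloramphenicol, Indomethacin, Ketoconazole, Sulfasalazine and WY14643. WT libraries held between 2709504 and 8948654 reads in batch 1 and between 2289425 and 8975207 in batch 2. Every member passed the filter on low counts, the fewest reads for any member in any well being 33 for Onecut1. Levels are given as counts relative to library size (CPM) scaled by the trimmed mean of M-values (TMM-scaled CPM), and since probes differ in efficiency they are compared within a gene only. Differences are log2 fold changes (L2FC) against vehicle from a quasi-likelihood fit in edgeR that included the batch, with the standard error (SE), and a gene is called lower or higher where its p-value, Benjamini-Hochberg adjusted over the 10191 genes tested, was under 0.05.

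Albumin is the main protein that the liver secretes into plasma, and transthyretin carries thyroid hormone and, through retinol-binding protein, vitamin A. Both genes are driven by liver-enriched transcription factors, among them the nuclear receptor HNF4α (Hnf4a), the basic leucine zipper factor C/EBPα (Cebpa), the forkhead pioneer factors FOXA1, FOXA2 and FOXA3 and the cut-homeodomain factor HNF6 (Onecut1). The homeodomain factor PROX1 is known in hepatocytes mainly as a co-repressor of nuclear receptors, HNF4α among them. Liver-enriched factors bind one another's promoters and form a network that keeps the mature hepatocyte programme on, and parts of that programme are known to fade when hepatocytes are taken into culture.

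The promoters of Alb, Foxa3, Cebpa and Hnf4a in the RefSeq table (build GRCr8) show which of these factors' letters lie near the starts. Each window runs from 250 bases before to 50 after the start, is written 5′ to 3′ along the gene, and has in capitals every match, on either strand, to TGTTTAC or TGTTTGC (FOXA), TTGCGCAA or TTGCNNAA (C/EBP), ATCAAT or ATCGAT (ONECUT), CAAAGTCC (HNF4), to the CCAAT and TATAAA boxes and to the letters GTTAAT. The albumin promoter (chr14:17906930-17907229, minus strand) is shown as the classic hepatocyte promoter.
Alb: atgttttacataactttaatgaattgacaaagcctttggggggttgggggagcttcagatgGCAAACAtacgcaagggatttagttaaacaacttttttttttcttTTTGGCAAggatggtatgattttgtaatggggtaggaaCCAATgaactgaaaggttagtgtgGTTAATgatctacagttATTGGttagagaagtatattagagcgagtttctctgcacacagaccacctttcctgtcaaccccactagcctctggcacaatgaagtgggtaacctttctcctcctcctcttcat
The Foxa3 (chr1:87799436-87799735, minus strand) and Cebpa (chr1:96896334-96896633, plus strand) promoters are shown because these members had the lowest and the highest L2FC.
Foxa3: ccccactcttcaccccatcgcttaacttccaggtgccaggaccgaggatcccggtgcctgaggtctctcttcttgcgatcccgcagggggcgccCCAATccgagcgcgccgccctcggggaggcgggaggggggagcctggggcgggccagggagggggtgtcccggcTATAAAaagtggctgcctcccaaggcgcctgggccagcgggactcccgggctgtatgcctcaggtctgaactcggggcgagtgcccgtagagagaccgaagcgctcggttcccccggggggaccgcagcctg
Cebpa: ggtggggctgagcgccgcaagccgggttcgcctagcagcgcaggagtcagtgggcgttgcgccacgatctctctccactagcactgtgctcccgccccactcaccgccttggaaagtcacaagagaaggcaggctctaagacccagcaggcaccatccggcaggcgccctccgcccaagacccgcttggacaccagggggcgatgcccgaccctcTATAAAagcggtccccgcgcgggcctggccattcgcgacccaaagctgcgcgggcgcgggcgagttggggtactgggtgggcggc
Hnf4a has 2 starts in the table, an upstream one (chr3:172605970-172606269, plus strand) and a downstream one (chr3:172641586-172641885, plus strand), which the assay's 1 probe does not tell apart.
Hnf4a upstream: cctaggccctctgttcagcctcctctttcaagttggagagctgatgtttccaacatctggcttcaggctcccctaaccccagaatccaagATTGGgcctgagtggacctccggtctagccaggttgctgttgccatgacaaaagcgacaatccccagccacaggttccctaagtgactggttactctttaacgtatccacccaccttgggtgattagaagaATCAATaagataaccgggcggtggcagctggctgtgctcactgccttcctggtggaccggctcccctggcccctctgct
Hnf4a downstream: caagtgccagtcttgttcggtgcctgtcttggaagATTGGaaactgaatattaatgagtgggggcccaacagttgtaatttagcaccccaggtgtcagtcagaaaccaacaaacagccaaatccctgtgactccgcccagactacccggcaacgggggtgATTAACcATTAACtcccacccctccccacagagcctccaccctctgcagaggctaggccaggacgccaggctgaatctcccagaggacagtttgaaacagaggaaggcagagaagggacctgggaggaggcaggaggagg

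The Alb window held a FOXA match (GCAAACA on the written strand) at positions 62 to 68 of 300, a C/EBP match (TTTGGCAA) at 107 to 114, a CCAAT box at 145 to 149 and, on the other strand, one ending at 190, and GTTAAT at 169 to 174. The downstream Hnf4a window held ATTAAC, which is GTTAAT on the other strand, at 161 to 166 and again at 168 to 173, and the upstream window held an ONECUT match at 222 to 227. In the Foxa3 window only a CCAAT box and a TATAAA matched, and in the Cebpa window only a TATAAA at 216 to 221. The windows of Ttr and Foxa2, which are also in the table and are not printed, each held an ONECUT match and a CCAAT box, both on the other strand, and that of Foxa2 a TATAAA too. Among all 33469 promoter windows of this length, 7.45% held GTTAAT, 8.43% a FOXA match, 10.6% a C/EBP match, 8.87% an ONECUT match, 1.4% an HNF4 match, 37.5% CCAAT and 14.2% TATAAA. A match is a description of letters and was not tested for binding.

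The labelled cell type was checked in vehicle wells, where the summed level of 7 hepatocyte markers (Alb, Ttr, Apoa1, Serpina1, Tf, Cps1 and Asgr1) was on average 38011 TMM-scaled CPM in batch 1 and 40496 in batch 2. Markers of other liver cells were read as well. The sums were 48.2 and 54.3 for 6 biliary and progenitor markers, 37.0 and 18.1 for 5 stellate and fibroblast markers, 34.7 and 25.8 for 6 Kupffer and leukocyte markers and 2.91 and 2.39 for 5 endothelial markers, and since probes differ these sums are not compared between lists. Among them Epcam, an epithelial adhesion gene, had a median vehicle level of 35.7, the collagen gene Col1a2 19.8, the macrophage scavenger receptor gene Cd163 10.7 and Afp, the fetal albumin relative, 10.1, while Krt7, Col1a1 and Des had a median of 0. Bulk libraries cannot tell fewer cells of a type from less RNA per cell, which holds for every level and difference given. Alb took 1.32% of the WT reads and 8.61% of the ST reads in vehicle.

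Over the 28 treatments and 8 members, 59 of 224 pairs were called lower (26.3%) and 41 higher (18.3%) (edgeR), against 15.0% and 15.2% over all genes and treatments. Of the 100 calls, 82 were made at the higher concentration of a chemical, 54 lower and 28 higher. The other 18 were made at the lower concentration, 5 lower and 13 higher. The share of all genes called was also larger at the higher concentration for every chemical but WY14643, and is given with each treatment below. The members did not move as one. Among the treatments in which they were called, Onecut1, Foxa3 and Alb were mostly lower and Cebpa mostly higher, and Hnf4a and Prox1 went down after some chemicals and up after others. In batch 1 alone 27 of the 100 calls were lost, and in batch 2 alone 7, while 3 pairs without a call were called in batch 1 alone and 10 in batch 2 alone. In batch 2 with vehicle wells of the same plate 15 were lost.

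**Figure D1:**
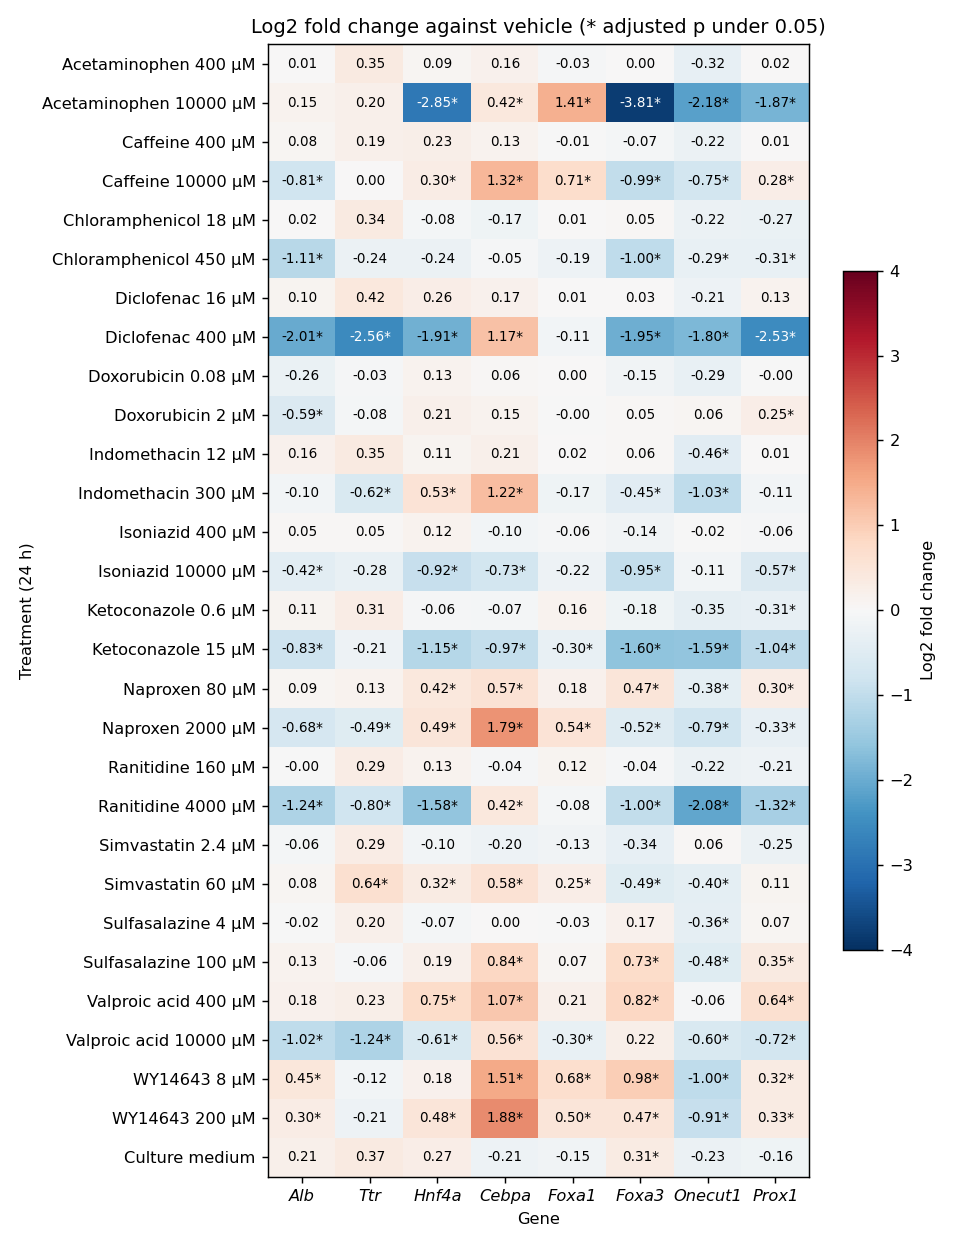
L2FC against vehicle for each of the 8 members (columns) after the 28 treatments and in medium alone (rows), with an asterisk where the adjusted p was under 0.05. Ketoconazole at 15 µM has 7 members called lower, and the Cebpa column has 13 treatments called higher.

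Diclofenac at 400 µM lowered Alb, Ttr, Hnf4a, Foxa3, Onecut1 and Prox1 and raised Cebpa, with 35.8% of all genes tested called lower and 36.0% higher. The median member L2FC was -1.93, against 0.01 for all genes. Foxa1 stood at -0.11 ± 0.10 (SE) and was not called. The summed hepatocyte markers, Alb and Ttr among them, averaged 7616 TMM-scaled CPM in batch 1 and 6574 in batch 2 after this treatment, below vehicle. Markers of other cells stood lower too: all 4 biliary and progenitor markers tested were called lower (median L2FC -2.26), and the mean sum over 6 markers was 48.2 TMM-scaled CPM in vehicle and 10.1 after treatment in batch 1, and 54.3 and 9.40 in batch 2. Of 3 Kupffer and leukocyte markers tested 2 were lower and 1 higher, with mean sums over 6 markers of 34.7 in vehicle and 21.6 after treatment in batch 1 and of 25.8 and 16.1 in batch 2. The part of these shifts in the members' values was not tested. All 11 other plasma protein genes tested were lower as well, with a median L2FC of -2.45.

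Ranitidine at 4000 µM gave the same 6 lower members and Cebpa higher, with 33.9% of genes lower and 32.3% higher. Onecut1 (-2.08 ± 0.12) and Hnf4a (-1.58 ± 0.13) fell most, and Ttr (-0.80 ± 0.16) fell least of the 6. The Cebpa call was lost in batch 1 alone (0.384). The stellate and fibroblast marker sum was below every vehicle well in both batches, at 22.2 and 6.05. So were the hepatocyte sum, Alb and Ttr among it (16360.5 and 12233), and the endothelial sum (0.509 and 0.667). The biliary and progenitor sum was above vehicle in batch 1 (64.7) and below it in batch 2 (30.8). Of 3 Kupffer and leukocyte markers tested 2 were lower and 1 higher (median L2FC -2.555). The part of these shifts in the members' values was not tested. Valproic acid at 10000 µM lowered Alb, Ttr, Hnf4a, Foxa1, Onecut1 and Prox1 and raised Cebpa, where 33.2% of genes were lower and 33.5% higher. Here Ttr (-1.24 ± 0.17) and Alb (-1.02 ± 0.10) fell further than any of the factors, and Foxa3 (0.22 ± 0.12) was not called. The Foxa1 L2FC was 0.04 in batch 1 and -0.56 in batch 2. The Kupffer marker sum was below every vehicle well in both batches, at 15.3 and 10.2.

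Ketoconazole at 15 µM lowered 7 of 8 members, all but Ttr, against 26.3% of genes lower and 25% higher. It raised 0 by edgeR, with 0 at an unadjusted p under 0.05 and 0 by DESeq2, and the same counts of 0 held for Isoniazid at 10000 µM and Chloramphenicol at 450 µM. Foxa3 (-1.60 ± 0.13) and Onecut1 (-1.59 ± 0.12) had the lowest values, Cebpa fell by 0.97 on the log2 scale, and Ttr (-0.21 ± 0.16) was not called. The hepatocyte marker sum (20710 and 22323), Alb and Ttr among it, and the endothelial sum (1.10 and 1.04) were below every vehicle well in both batches. Of 3 Kupffer and leukocyte markers tested 2 were lower and 1 higher (median L2FC -0.95), and the part of these shifts in the members' values was not tested.

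After Acetaminophen at 10000 µM all 6 factors were called, in a treatment where most genes of any kind were, and neither secreted product was. Hnf4a, Foxa3, Onecut1 and Prox1 were lower and Cebpa and Foxa1 higher. Against these 4 and 2 of the 8 members, 40.1% of genes were lower and 38.8% higher. Cebpa wells (L2FC 0.42) overlapped vehicle in both batches, and those of the other factors called did not. Alb (0.15 ± 0.10) and Ttr (0.20 ± 0.16) were not called, while Foxa3 fell by 3.81 and Hnf4a by 2.85 on the log2 scale. The Ttr value pools opposite signs, with an L2FC of -0.38 in batch 1, where it was not called, and of 0.62 in batch 2, where it was called higher (adjusted p = 0.00161). Of the 12 other liver-enriched factors 8 were lower and 2 higher, and of the 10 enzymes and surface receptors 8 were lower and 1 higher, while of the 11 other plasma proteins 4 were lower and 5 higher. These libraries had TMM factors of 0.71 to 0.84, against 1.01 to 1.07 in vehicle. Other treatments stood outside the vehicle range too, such as WY14643 at 8 µM (0.79 to 0.92) and 200 µM (0.83 to 0.95). For valproic acid at 10000 µM the factors were 1.15 to 1.33. The part of these factors in the members' values was not tested. The stellate and fibroblast marker sum was below every vehicle well in both batches, at 19.2 and 8.04.

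Caffeine at 10000 µM lowered Alb, Foxa3 and Onecut1 and raised Hnf4a, Cebpa, Foxa1 and Prox1, with 31.6% of genes lower and 34.6% higher. The Prox1 L2FC was 0.605 in batch 1 and -0.009 in batch 2, and the Hnf4a call was lost in batch 1 alone (0.259). The Kupffer marker sum was 10.2 in batch 1 and 9.001 in batch 2, and that of stellate and fibroblast markers 9.86 and 2.39, all below every vehicle well, and their part in the members' values was not tested. Naproxen at 2000 µM was the single treatment in which all 8 members were called: Alb, Ttr, Foxa3, Onecut1 and Prox1 were lower and Hnf4a, Cebpa and Foxa1 higher, against 26.2% and 27.6% of genes. In batch 1 alone 4 of these calls were lost, Ttr (-0.339), Hnf4a (0.357), Foxa3 (-0.217) and Prox1 (-0.221), and that of Ttr was lost in the ST assay as well (-0.283). The Kupffer sum (20.1 and 13.4) and the biliary and progenitor sum (21.9 and 18.0) were below every vehicle well. Simvastatin at 60 µM lowered Foxa3 and Onecut1 and raised Ttr, Hnf4a, Cebpa and Foxa1, with 12.5% of genes lower and 11.4% higher. The Hnf4a call (0.32, adjusted p = 0.0448) was lost in batch 1 alone (0.282), in batch 2 alone (0.376) and in the ST assay (0.171), and the Foxa1 (0.322), Foxa3 (-0.316) and Onecut1 (-0.172) calls were lost in batch 1 alone.

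WY14643, a ligand of the nuclear receptor PPARα, raised members at both concentrations. At 8 µM Alb, Cebpa, Foxa1, Foxa3 and Prox1 were higher and Onecut1 lower, with 28.2% of genes lower and 28% higher. At 200 µM Hnf4a was called higher too, with 25.4% of genes lower and 26.0% higher. Its difference between 200 and 8 µM was not called (0.30 ± 0.14, edgeR adjusted p = 0.187). The 200 µM call of Hnf4a was lost in the ST assay (0.285), and its batch 2 wells overlapped vehicle. Ttr had L2FCs of -0.12 ± 0.16 and -0.21 ± 0.16 and was not called.

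The remaining 5 chemicals gave fewer calls at the higher concentration. Isoniazid at 10000 µM lowered Alb, Hnf4a, Cebpa, Foxa3 and Prox1 (17.3% of genes lower, 17.4% higher), of which the Alb call was lost in batch 1 alone (-0.168). Indomethacin at 300 µM lowered Ttr, Foxa3 and Onecut1 and raised Hnf4a and Cebpa (27.6% lower, 27.1% higher). In batch 1 alone Foxa3 stood at -0.03, with wells overlapping vehicle, and Ttr at -0.47, neither of them called. The Kupffer sum (18.25 and 10.45) and the biliary and progenitor sum (28.7 and 29.95) were below every vehicle well. Chloramphenicol at 450 µM lowered Alb, Foxa3, Onecut1 and Prox1 (17.2% lower, 16.1% higher), of which the Onecut1 and Prox1 calls were lost in batch 1 alone (-0.19 and -0.174). The biliary and progenitor sum (34.0 and 32.5) was below every vehicle well. Sulfasalazine at 100 µM lowered Onecut1 and raised Cebpa, Foxa3 and Prox1 (19.6% lower, 21.3% higher). Doxorubicin at 2 µM lowered Alb and raised Prox1 (10.3% lower, 9.07% higher), and both calls were lost in batch 1 alone (-0.29 and 0.259). The Kupffer sum (5.245 and 5.653) and the stellate and fibroblast sum (4.51 and 1.29) were below every vehicle well, and the biliary and progenitor sum (41.6 and 47.5) was too.

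At the lower concentrations, valproic acid at 400 µM raised Hnf4a, Cebpa, Foxa3 and Prox1 (14.0% of genes lower, 15.1% higher), and Naproxen at 80 µM raised the same 4 and lowered Onecut1 (7.4% lower, 8.64% higher). At 80 µM each Naproxen call was lost in at least 1 batch: Hnf4a in both (0.455 and 0.382), Cebpa (0.252), Foxa3 (0.11) and Prox1 (0.198) in batch 2 alone and Onecut1 (-0.141) in batch 1 alone. Onecut1 alone was lower after Indomethacin at 12 µM (2.34% lower, 3.53% higher) and Sulfasalazine at 4 µM (8.03% lower, 9.35% higher), and Prox1 alone after Ketoconazole at 0.6 µM (0.775% lower, 0.844% higher), a call lost in batch 1 alone (-0.217). In the other 8 lower-concentration treatments edgeR called 0 of 64 pairs, with 14 at an unadjusted p under 0.05 and 0 by DESeq2. Few genes of any kind were called there. The shares lower and higher were 0.667% and 0.716% for Acetaminophen, 0.0294% and 0.0883% for Caffeine, 0.0196% and 0.0687% for Chloramphenicol, and 0.0196% and 0.118% for Diclofenac. They were 0.245% and 1.08% for Doxorubicin, 0.0% and 0.0196% for Isoniazid, 0.0196% and 0.0393% for Ranitidine, and 1.28% and 1.13% for Simvastatin.

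The higher concentration was then tested against the lower one of the same chemical, and 73 of 112 pairs were called, 55 with the lower level at the higher concentration and 18 with the higher. All 8 members were called for Ketoconazole and for valproic acid, all of them lower at the higher concentration. There 41.7% and 65.3% of genes were called in either direction. The shares of genes in this paragraph count both directions together, so the direction of the members' calls has no share beside it. For Diclofenac (70.0% of genes), Naproxen (47.4%) and Ranitidine (57.5%) 7 members were called, for Caffeine (61.5%) and Indomethacin (43.0%) 6, and for Acetaminophen (76.3%), Isoniazid (31.4%) and Simvastatin (24.0%) 5. Chloramphenicol (24.3%) and Sulfasalazine (12.9%) gave 3, Doxorubicin (10.3%) gave 2 and WY14643 (5.74%) gave 1, Foxa3, with a difference of -0.51 ± 0.14 between 200 and 8 µM. Valproic acid turned direction between its concentrations: the L2FC of Hnf4a went from 0.75 at 400 µM to -0.61 at 10000 µM, a difference of -1.36 ± 0.14 (adjusted p = 3.1e-17), and that of Prox1 from 0.64 to -0.72, a difference of -1.36 ± 0.10 (adjusted p = 3.55e-27). Foxa3 turned likewise with Naproxen, from 0.47 at 80 µM to -0.52 at 2000 µM, a difference of -0.99 ± 0.14 (adjusted p = 2.48e-10), and so did Prox1, from 0.30 to -0.33, a difference of -0.63 ± 0.10 (adjusted p = 1.68e-08). For both genes the call against vehicle at 80 µM was lost in batch 2 alone (0.11 for Foxa3, 0.198 for Prox1). That at 2000 µM was lost in batch 1 alone (-0.217 and -0.221). The signs were the same in both batches at each concentration. In both batches Prox1 wells lay above every vehicle well at 80 µM and below every vehicle well at 2000 µM. Foxa3 wells lay below vehicle in both batches at 2000 µM, and at 80 µM they overlapped vehicle in batch 2.

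**Figure D2:**
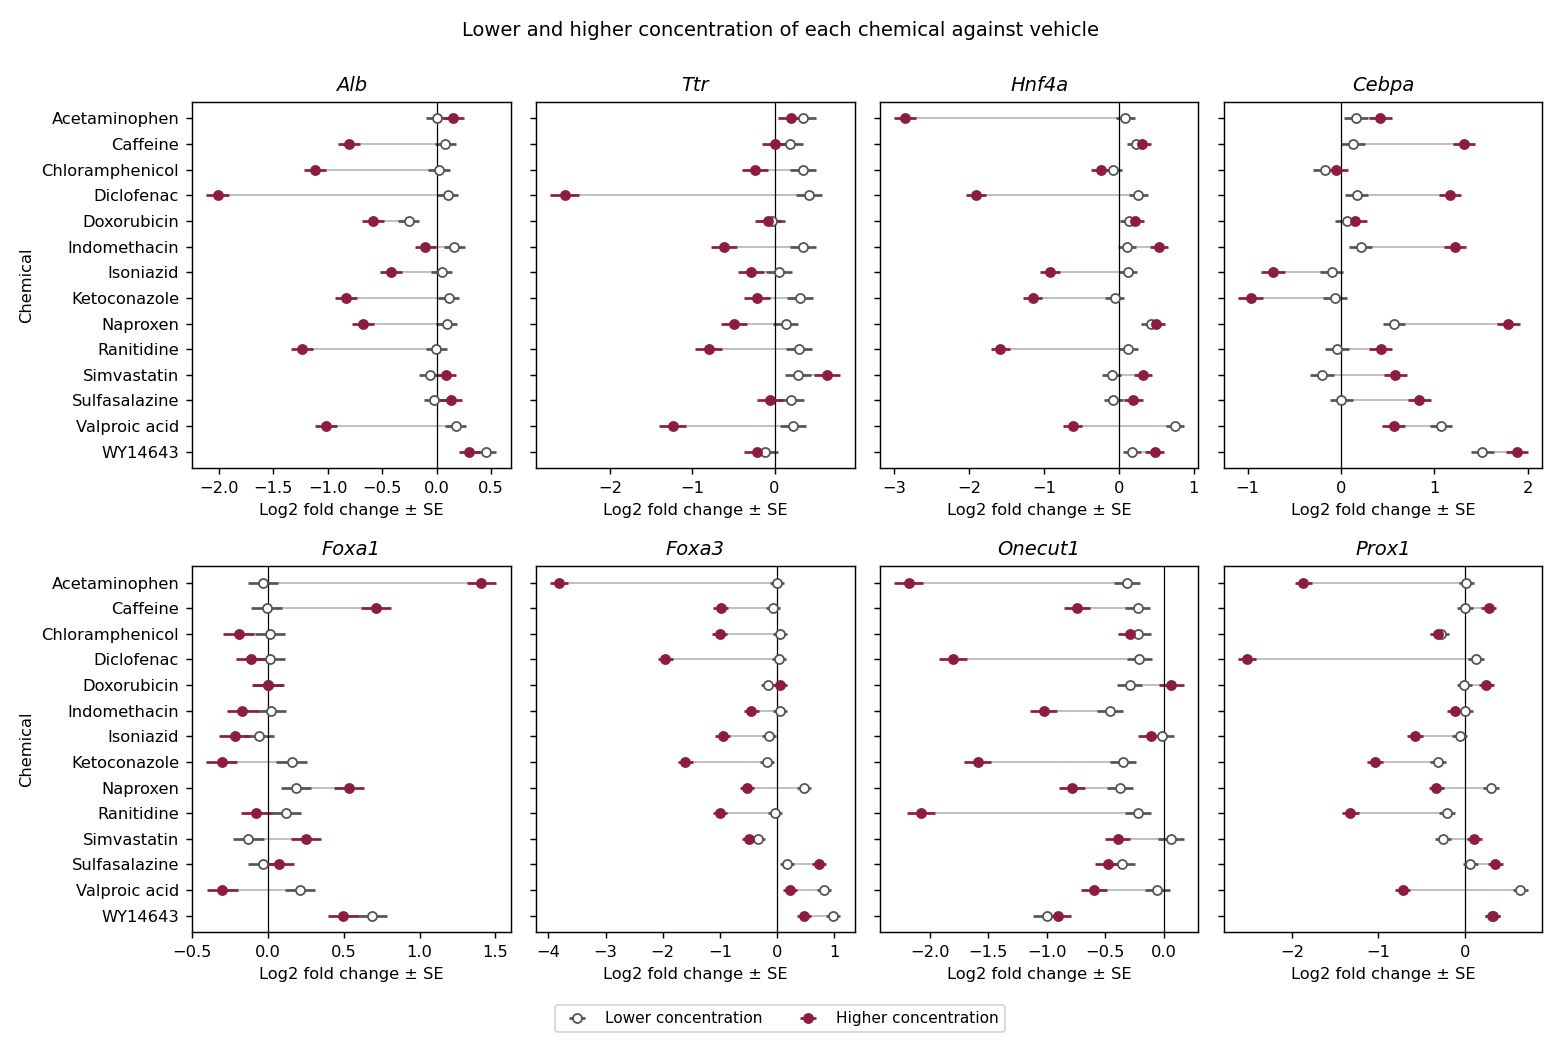
L2FC ± SE against vehicle at the lower (open) and higher (filled) concentration of each chemical, 1 panel per member, each panel with its own horizontal scale. For valproic acid the Hnf4a and Prox1 points lie on opposite sides of 0, and for WY14643 the Foxa3 points, 0.51 apart, are the farthest from each other.

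Medium alone differed from vehicle in 1 member: Foxa3 was higher by 0.31 ± 0.11 (adjusted p = 0.0446), where 5.1% of genes were lower and 7.51% higher. Its vehicle wells spanned 197 to 237 in batch 1 and 178 to 227 in batch 2, and its medium wells 230 to 238 and 223 to 304, so that the groups overlapped in both batches. The call was lost without the batch term, without the filter on low counts and without the medium library with the fewest reads. It was also lost without any 1 of the replicate numbers. When only medium and vehicle wells were fitted 6 members were called. The share of all genes called in that fit is not given here, and the 5.1% and 7.51% belong to the main fit. Ttr (0.37 ± 0.14) and Hnf4a (0.27 ± 0.11) stood in the same direction without a call. In the ST assay Ttr was called higher (0.431), and Hnf4a stood at 0.026.

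Alb, the carrier protein of plasma, had vehicle levels of 11323 ± 906 TMM-scaled CPM (SD, n = 3) in batch 1 and 13376 ± 744 (n = 6) in batch 2. It was called lower in 9 treatments and higher in 2, all 9 at the higher concentration, and at the 14 lower concentrations 0 were lower by edgeR, with 1 at an unadjusted p under 0.05 and 0 by DESeq2. Doxorubicin at 0.08 µM (-0.257) was called lower in batch 2 alone (-0.464) and in the ST assay (-0.461), with an L2FC of 0.055 in batch 1. After Diclofenac at 400 µM the 3 wells of batch 1 held 2889, 3531 and 3886 and those of batch 2 held 2737, 2999.5 and 3048. All lay below every vehicle well, which spanned 10310.3 to 12056 and 12232 to 14254, and the L2FC was -2.01 ± 0.11 (4.02-fold lower, adjusted p = 2.29e-41). Ranitidine at 4000 µM gave 5669, 5878 and 6994 in batch 1 and 4328, 4510.5 and 5256 in batch 2. The L2FC was -1.24 ± 0.10 (adjusted p = 3.96e-23), without overlap in either batch. Chloramphenicol at 450 µM, an inhibitor of mitochondrial translation, gave 4584, 6659 and 7805, and 5181, 5599 and 5663, with an L2FC of -1.11 ± 0.10 (adjusted p = 9.1e-19). On the other side stood WY14643 at 8 µM, whose wells held 18399, 18855 and 19673 in batch 1 and 15390.5, 15474 and 17011 in batch 2, all above vehicle, with an L2FC of 0.45 ± 0.10 (adjusted p = 2.95e-05). The L2FC was 0.77 in batch 1 and 0.24 in batch 2, and in batch 2 against vehicle of the same plate it was 0.22 and not called. At 200 µM the L2FC was 0.30 ± 0.10 (adjusted p = 0.00591), a call that was lost in batch 2 alone (0.21), there against vehicle of the same plate (0.187), and without replicate 2 (0.265) or 3 (0.266).

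Ttr had vehicle levels of 6089.7 ± 427 (SD, n = 3) and 7168 ± 660 (n = 6), and was called in the fewest treatments of all members, lower in 5 and higher in 1. Diclofenac at 400 µM left 871, 1044 and 1153 in batch 1 and 966, 1027 and 1762 in batch 2. Vehicle wells spanned 5604 to 6404 and 6362 to 8069, and the L2FC was -2.56 ± 0.18 (5.88-fold lower, adjusted p = 6.49e-30). Valproic acid at 10000 µM followed with 2516, 2682 and 3367, and 2175, 2495 and 3575, an L2FC of -1.24 ± 0.17 (adjusted p = 2e-11), and Ranitidine at 4000 µM with an L2FC of -0.80 ± 0.16 (adjusted p = 6.31e-06). The Ranitidine call was lost in batch 1 alone, where the L2FC was -0.51. Simvastatin at 60 µM, an inhibitor of cholesterol synthesis, was the single treatment that raised Ttr, to 9598, 9844 and 10737.5 in batch 1 and 9411, 10774 and 11918 in batch 2, all above vehicle, with an L2FC of 0.64 ± 0.16 (adjusted p = 0.000744). In batch 2 against vehicle of the same plate the L2FC was 0.56 and not called.

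**Figure D3:**
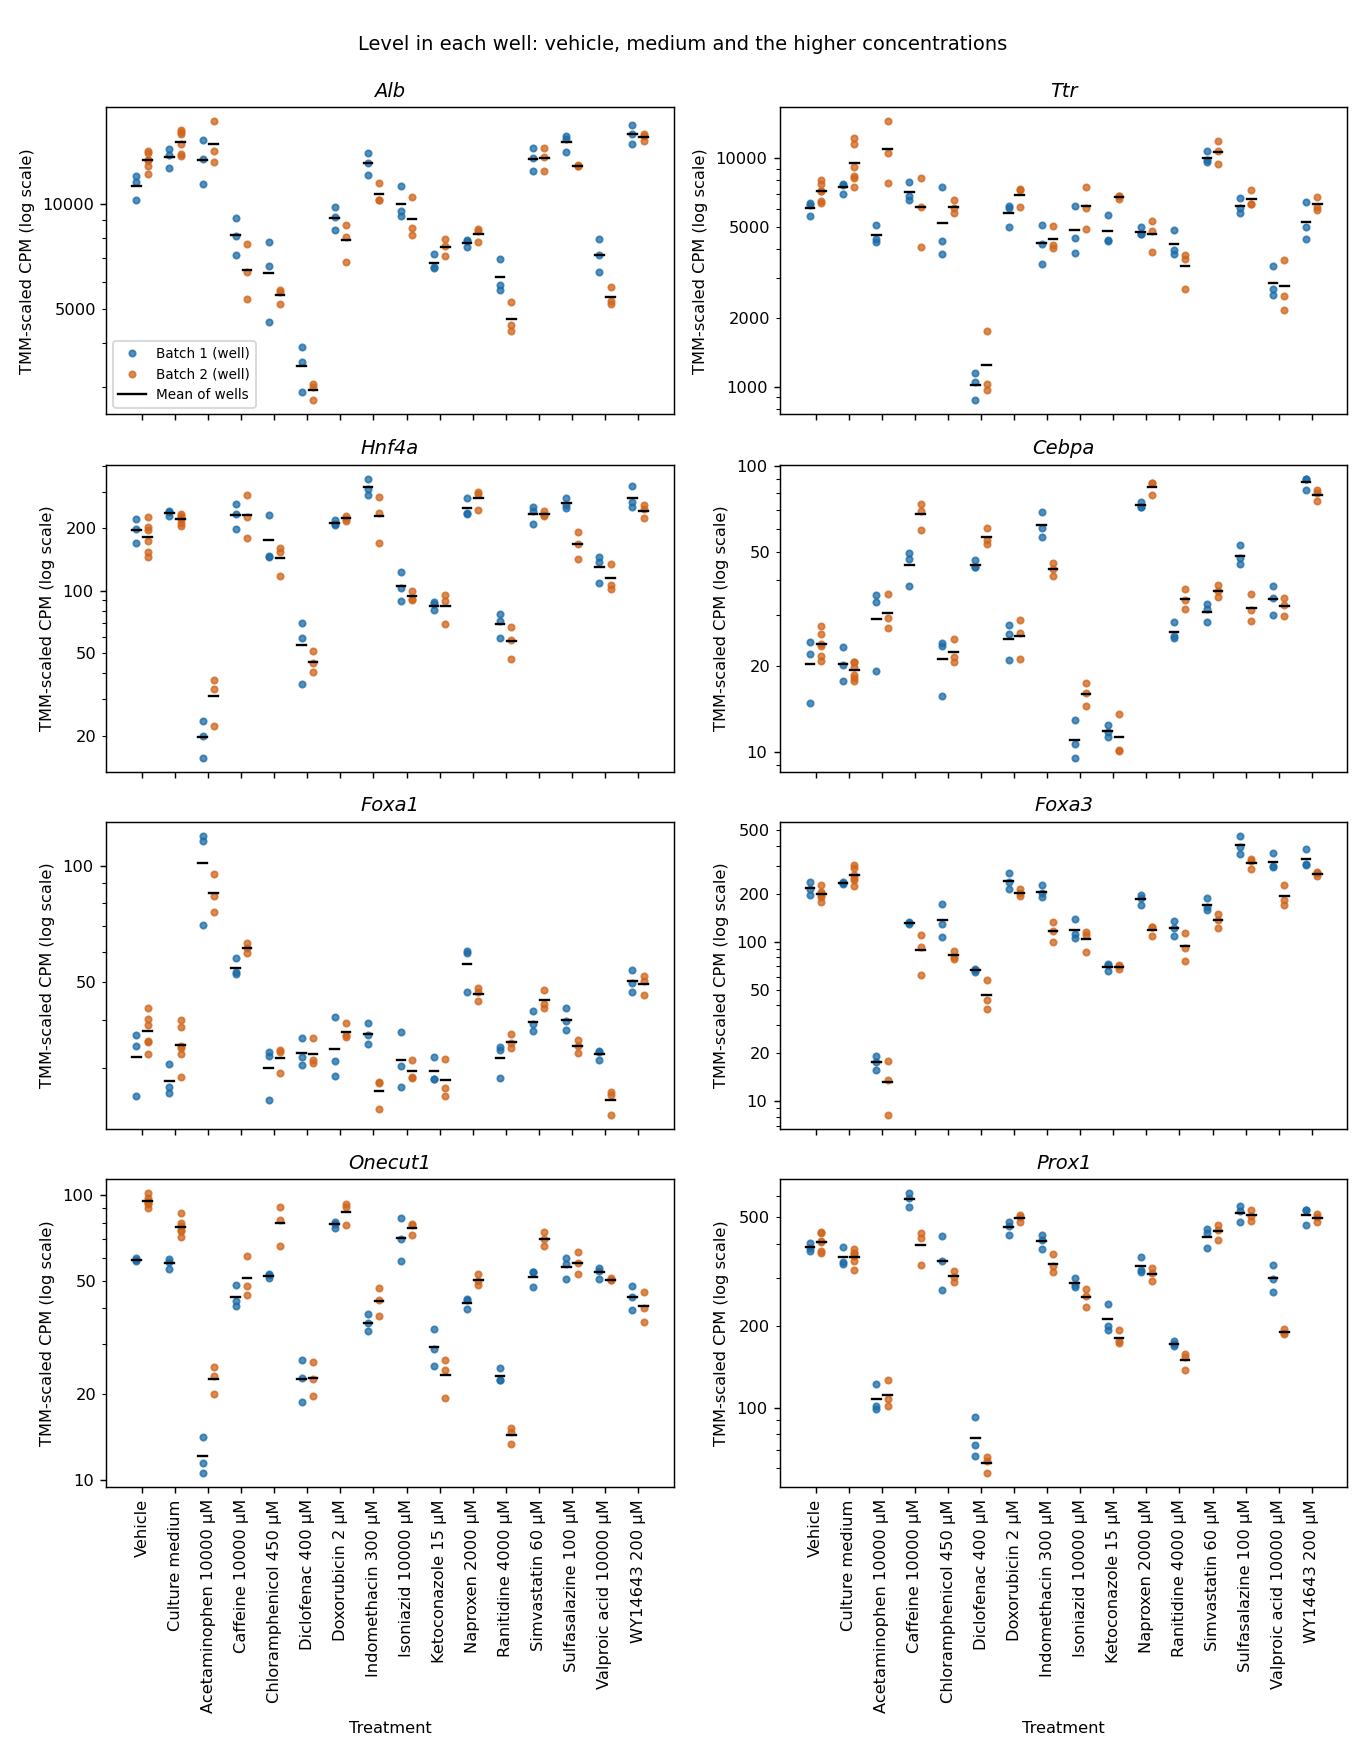
TMM-scaled CPM in every well (points, log scale) of vehicle, medium and the 14 higher-concentration treatments, by batch, with the mean of the wells as a bar. Hnf4a and Foxa3 have their lowest wells after Acetaminophen at 10000 µM, and Onecut1 in vehicle lies at 58.5 to 60.2 in batch 1 and at 90.3 to 101 in batch 2.

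Hnf4a, the nuclear receptor at the centre of the network, had vehicle levels of 197 ± 26.7 (SD, n = 3) and 183 ± 30.8 (n = 6) and was called lower in 6 treatments and higher in 7. Acetaminophen at 10000 µM left 15.7, 19.9 and 23.6 in batch 1 and 22.4, 33.6 and 37.2 in batch 2. Every well lay far under the vehicle wells, 170 to 223 and 146 to 226, and the L2FC was -2.85 ± 0.15 (7.21-fold lower, adjusted p = 3.58e-43). Diclofenac at 400 µM gave 35.5, 59.0 and 69.8, and 40.4, 45.1 and 51.0 (L2FC -1.91 ± 0.14, adjusted p = 8.38e-29). Ranitidine at 4000 µM gave 59.1, 71.3 and 77.1, and 47.0, 57.8 and 66.7 (L2FC -1.58 ± 0.13, adjusted p = 1.71e-22). Upwards, valproic acid at 400 µM gave 280, 285 and 346 in batch 1 and 324, 325 and 334 in batch 2, an L2FC of 0.75 ± 0.12 (adjusted p = 1.5e-07) without overlap. Indomethacin at 300 µM (0.53 ± 0.12) and Naproxen at 2000 µM (0.49 ± 0.12) came next. Indomethacin wells overlapped vehicle in batch 2, and against vehicle of the same plate there the L2FC was 0.18 and not called. The Naproxen call was lost in batch 1 alone, where the L2FC was 0.36 (adjusted p = 0.135).

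Cebpa, the leucine zipper factor of the mature, non-dividing hepatocyte, had vehicle levels of 20.3 ± 4.9 (SD, n = 3) and 23.9 ± 2.5 (n = 6). It was called higher in 13 treatments and lower in 2. Of these 15 calls, 3 were lost in batch 2 with vehicle of the same plate. WY14643 at 200 µM gave 82.04, 89.92 and 89.96 in batch 1 and 75.2, 80.3 and 82.1 in batch 2. Vehicle wells spanned 14.8 to 24.2 and 20.9 to 27.5, and the L2FC was 1.88 ± 0.12 (3.69-fold, adjusted p = 6.55e-33). Naproxen at 2000 µM was next, with 71.5, 71.5 and 74.9, and 78.7, 86.6 and 86.8, an L2FC of 1.79 ± 0.12 (adjusted p = 7.43e-31). WY14643 at 8 µM gave 62.6, 74.5 and 77.8, and 52.3, 58.1 and 61.1 (L2FC 1.51 ± 0.12, adjusted p = 3.72e-24). None of these 18 wells overlapped the vehicle wells. Caffeine at 10000 µM (1.32 ± 0.12), Indomethacin at 300 µM (1.22 ± 0.12) and Diclofenac at 400 µM (1.17 ± 0.12) raised it as well. The 2 lower calls were Ketoconazole at 15 µM, with wells of 11.3, 11.8 and 12.5, and 10.1, 10.2 and 13.6 (L2FC -0.97 ± 0.13, adjusted p = 2.17e-10), and Isoniazid at 10000 µM (-0.73 ± 0.13, adjusted p = 1.45e-06).

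The forkhead factors differed from each other. Foxa3 had vehicle levels of 217 ± 20.0 (SD, n = 3) and 200 ± 16.4 (n = 6) and was called lower in 10 treatments and higher in 5. Acetaminophen at 10000 µM left 15.7, 17.5 and 19.3 in batch 1 and 8.17, 13.6 and 17.8 in batch 2. This was the lowest L2FC of any member, -3.81 ± 0.16 (14.0-fold lower, adjusted p = 2.43e-54). Diclofenac at 400 µM gave 64.7, 66.3 and 67.6, and 37.6, 43.4 and 57.1 (L2FC -1.95 ± 0.14, adjusted p = 1.35e-29). Ketoconazole at 15 µM gave 65.7, 71.2 and 72.7, and 67.9, 70.1 and 71.5 (L2FC -1.60 ± 0.13, adjusted p = 1.44e-22). Upwards, WY14643 at 8 µM reached 423, 476 and 508, and 357, 385 and 399, above every vehicle well, which spanned 197 to 237 and 178 to 227 (L2FC 0.98 ± 0.12, adjusted p = 2.14e-12). Valproic acid at 400 µM (0.82 ± 0.12) and Sulfasalazine at 100 µM (0.73 ± 0.12) also raised Foxa3.

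Foxa1 had vehicle levels of 32.1 ± 5.9 (SD, n = 3) and 37.4 ± 3.8 (n = 6), and was called higher in 6 treatments and lower in 2. The treatment with the lowest Foxa3 level had the highest Foxa1 level: Acetaminophen at 10000 µM gave 70.3, 116 and 119 in batch 1 and 75.8, 83.6 and 95.0 in batch 2. Vehicle wells spanned 25.4 to 36.6 and 32.6 to 43.0, and the L2FC was 1.41 ± 0.10 (2.65-fold, adjusted p = 5.87e-30). Caffeine at 10000 µM, which lowered Foxa3, gave 52.4, 53.1 and 57.9, and 59.5, 61.3 and 63.3 (L2FC 0.71 ± 0.10, adjusted p = 7.29e-11), and WY14643 at 8 µM, which raised Foxa3, gave an L2FC of 0.68 ± 0.10 (adjusted p = 7.79e-10). Ketoconazole at 15 µM was the single treatment called lower with the same sign in both batches (-0.30 ± 0.10, adjusted p = 0.00833). The batch 1 wells overlapped vehicle there, and the L2FC was -0.11 in batch 1 alone, where the call was lost (adjusted p = 0.654), and -0.40 in batch 2. It was also lost without replicate 1 (-0.27).

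Onecut1, the cut-homeodomain factor, was called lower in 16 treatments, more than any other member, and higher in 0, with 0 at an unadjusted p under 0.05 and 0 by DESeq2. In batch 1 alone it was called higher after Doxorubicin at 2 µM (0.428) and valproic acid at 400 µM (0.366), with wells above vehicle, and in batch 2 these L2FCs were -0.111 and -0.32, the latter called lower. It was called lower at 4 of the lower concentrations, Indomethacin 12 µM, Naproxen 80 µM, Sulfasalazine 4 µM and WY14643 8 µM. Its vehicle level differed between the batches without overlap, at 59.2 ± 0.88 (SD, n = 3) in batch 1 and 95.2 ± 3.9 (n = 6) in batch 2. In batch 1 alone 7 of the 16 calls were lost, and in batch 2 alone 0. The 7 are given with their batch 1 L2FC. They included Indomethacin at 12 µM (-0.21), Naproxen at 80 µM (-0.14) and Sulfasalazine at 4 µM (-0.12) and 100 µM (-0.06). The rest were Chloramphenicol at 450 µM (-0.19), Simvastatin at 60 µM (-0.17) and valproic acid at 10000 µM (-0.12). In batch 1 their wells lay below every vehicle well, except after Sulfasalazine at 4 and 100 µM, where they overlapped. Acetaminophen at 10000 µM left 10.6, 11.5 and 14.2 in batch 1 and 20.0, 23.1 and 24.9 in batch 2 (L2FC -2.18 ± 0.12, 4.54-fold lower, adjusted p = 1.82e-38). Ranitidine at 4000 µM left 22.4, 22.4 and 24.7, and 13.3, 14.7 and 15.2 (L2FC -2.08 ± 0.12, adjusted p = 1.64e-36). Diclofenac at 400 µM left 18.8, 22.8 and 26.3, and 19.8, 22.7 and 25.9 (L2FC -1.80 ± 0.12, adjusted p = 4.86e-32). Acetaminophen gave the lowest of these levels in batch 1 and Ranitidine in batch 2.

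Prox1, the homeodomain factor, had vehicle levels of 388 ± 13.8 (SD, n = 3) and 406 ± 30.3 (n = 6) and was called lower in 9 treatments and higher in 7. Diclofenac at 400 µM left 66.7, 72.9 and 92.5 in batch 1 and 57.8, 63.7 and 66.2 in batch 2. Vehicle wells spanned 377 to 404 and 369 to 442, and the L2FC was -2.53 ± 0.10 (5.76-fold lower, adjusted p = 4.27e-55). Acetaminophen at 10000 µM gave 98.9, 101 and 122, and 101, 107 and 127 (L2FC -1.87 ± 0.10, adjusted p = 3.72e-42), and Ranitidine at 4000 µM gave 169, 171 and 176, and 138, 154 and 158 (L2FC -1.33 ± 0.10, adjusted p = 3.23e-28). Valproic acid at 400 µM raised Prox1 to 596, 657 and 661, and 580, 638 and 639, all above vehicle (L2FC 0.64 ± 0.09, adjusted p = 5.88e-10). Sulfasalazine at 100 µM (0.35 ± 0.09) and WY14643 at 200 µM (0.33 ± 0.09) gave smaller rises. Neither was called in batch 2 against vehicle of the same plate (0.226 and 0.199). Among all 16 Prox1 calls, 5 were lost in that setting.

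Among 12 other liver-enriched transcription factors, all of them tested, Gata6, a zinc finger factor, was called lower in 13 treatments, and the genes called higher in the most were Cebpb, an acute phase leucine zipper factor, in 14 and Rxra, the dimer partner of many nuclear receptors, in 10. Cebpb rose by 1.97 ± 0.11 after Caffeine at 10000 µM and by 1.81 ± 0.11 after Naproxen at 2000 µM, where Cebpa was higher too.

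Of 12 other plasma protein genes 11 were tested. After Diclofenac at 400 µM, Ranitidine at 4000 µM and valproic acid at 10000 µM all 11 were lower, with median L2FCs of -2.45, -1.87 and -1.45, and after Ketoconazole at 15 µM and Naproxen at 2000 µM 10 were. Alb was lower in these 5 treatments as well. Ambp, the precursor of α1-microglobulin and bikunin, was lower in 15 treatments, and Apoa1, Fetub and Tf in 12 each. Rbp4, the retinol carrier that travels with transthyretin, was lower in 9 treatments and higher in 8, from -3.25 ± 0.18 after Ranitidine at 4000 µM to 1.20 ± 0.15 after WY14643 at 200 µM, and Fgb, a fibrinogen chain, was higher in 8. After Sulfasalazine at 100 µM 6 of the 11 were higher and 1 lower.

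All 10 hepatocyte enzymes and surface receptors were tested. Hal, which breaks down histidine, was lower in 12 treatments, with an L2FC of -5.90 ± 0.35 after Acetaminophen at 10000 µM. Pck1, the gluconeogenic enzyme, was higher in 15, with an L2FC of 10.59 ± 0.26 after Caffeine at 10000 µM. Caffeine at 10000 µM raised 8 of the 10 and lowered 2, with a median L2FC of 1.89, while it lowered 9 of the 11 other plasma proteins.

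Markers of other liver cells moved with several treatments. Of 6 biliary and progenitor markers 4 passed the filter on low counts, of 5 stellate and fibroblast markers with a probe 1, of 6 Kupffer and leukocyte markers 3, and of 5 endothelial markers 0. The Kupffer markers Cd163 and Clec4f were lower in 12 and 11 treatments, Cd163 with L2FCs of -5.81 ± 0.42 after Doxorubicin at 2 µM and -4.53 ± 0.35 after valproic acid at 10000 µM, and the lysosomal marker Cd68 was higher in 9. The fibroblast gene Col1a2 was lower in 9. Epcam and Spp1 were lower in 8 each, and Sox9, a factor of biliary and progenitor cells, was higher in 6, with an L2FC of 2.72 ± 0.25 after Ranitidine at 4000 µM. In vehicle the Kupffer markers together reached 34.7 TMM-scaled CPM in batch 1 and 25.8 in batch 2, and after valproic acid at 10000 µM 15.3 and 10.2. Over the 28 treatments the summed Kupffer, biliary and progenitor, and endothelial markers were each below every vehicle well in both batches in 6, the stellate and fibroblast markers in 4 and the hepatocyte markers in 10, and none of the 5 sums was above every vehicle well in both batches in any treatment. Their part in the members' changes was not tested.

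The pattern of each member over the 60 means of condition and batch (log2 of CPM + 1, centred within batch) was set beside that of every other gene tested, as a description, since the points share controls, plates and depth. The genes most like Alb were F12, Pglyrp2 and F2 (r = 0.94, 0.92 and 0.91), all of them genes of plasma proteins, and those most like Ttr were Fetub, Proc and Gstm3 (0.86 each). Hnf4a was closest to RGD1309350, Nags and Cideb (0.95, 0.95 and 0.94), Prox1 to Stard10, Marc1 and RGD1309350 (0.92, 0.92 and 0.91), and Foxa3 to Mcee, Shank3 and Igf2bp3 (0.91, 0.91 and 0.90). Cebpa was closest to Hsdl2, Crat and Eci1 (0.89, 0.86 and 0.86), and the last 2 are enzymes of fatty acid handling. Onecut1 was closest to Rhobtb3, Acnat1 and Plcb1 (0.89, 0.88 and 0.88). Foxa1 had no gene above r = 0.76, its 3 nearest being Tob1, Kctd6 and Fam222a (0.76, 0.75 and 0.74). Between members, r ran from -0.46 for Cebpa with Ttr to 0.91 for Hnf4a with Prox1, with Foxa3 near Hnf4a (0.83) and Prox1 (0.82), Alb with Ttr at 0.76, and Foxa1 with Foxa3 at -0.34.

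The 2 batches were compared by a batch by treatment interaction, which was called in 22 of 224 pairs (9.82%), against 2.44% over all genes and treatments. Onecut1 made up 12 of the 22, each with the lower L2FC in batch 2, and all 12 rest on the same 3 vehicle wells of batch 1 and 6 of batch 2. The largest was Ranitidine at 4000 µM, with L2FCs of -1.34 in batch 1 and -2.69 in batch 2 (difference -1.37, adjusted p = 3.73e-12). Hnf4a and Foxa3 had 0 such pairs by edgeR, with 4 and 7 at an unadjusted p under 0.05. Ttr after Acetaminophen at 10000 µM had L2FCs of -0.38 in batch 1 and 0.62 in batch 2 (adjusted p = 0.0248).

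**Figure D4:**
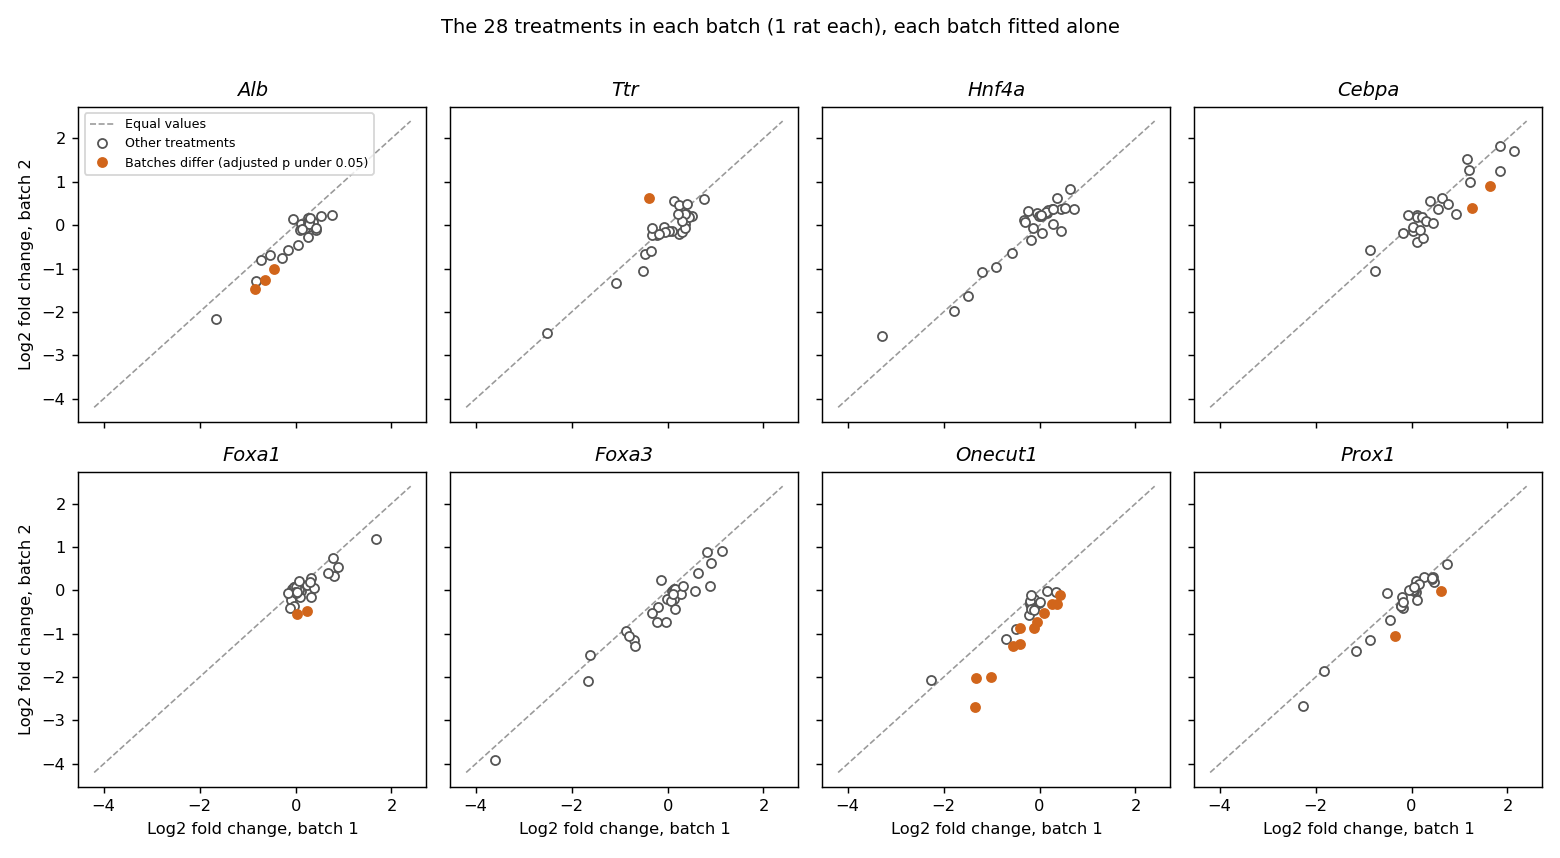
L2FC of the 28 treatments in batch 1 (horizontal) and batch 2 (vertical), each batch fitted alone, 1 panel per member, with filled points where the batches differed (adjusted p under 0.05). The Onecut1 panel has 12 filled points, all below the line of equal values.

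The ST assay held 5 members, Alb, Ttr, Hnf4a, Cebpa and Onecut1, and gave the same sign in all 61 pairs called in WT. Of these, 56 were called in ST too. A further 3 pairs were called lower in ST and not in WT, Alb after Doxorubicin at 0.08 µM (-0.461) and Indomethacin at 300 µM (-0.301) and Hnf4a after Chloramphenicol at 450 µM (-0.343). The median absolute difference between the assays was 0.10 on the log2 scale over 140 pairs, and the largest was 0.39 for Ttr after Diclofenac at 400 µM (-2.56 in WT, -2.17 in ST).

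**Figure D5:**
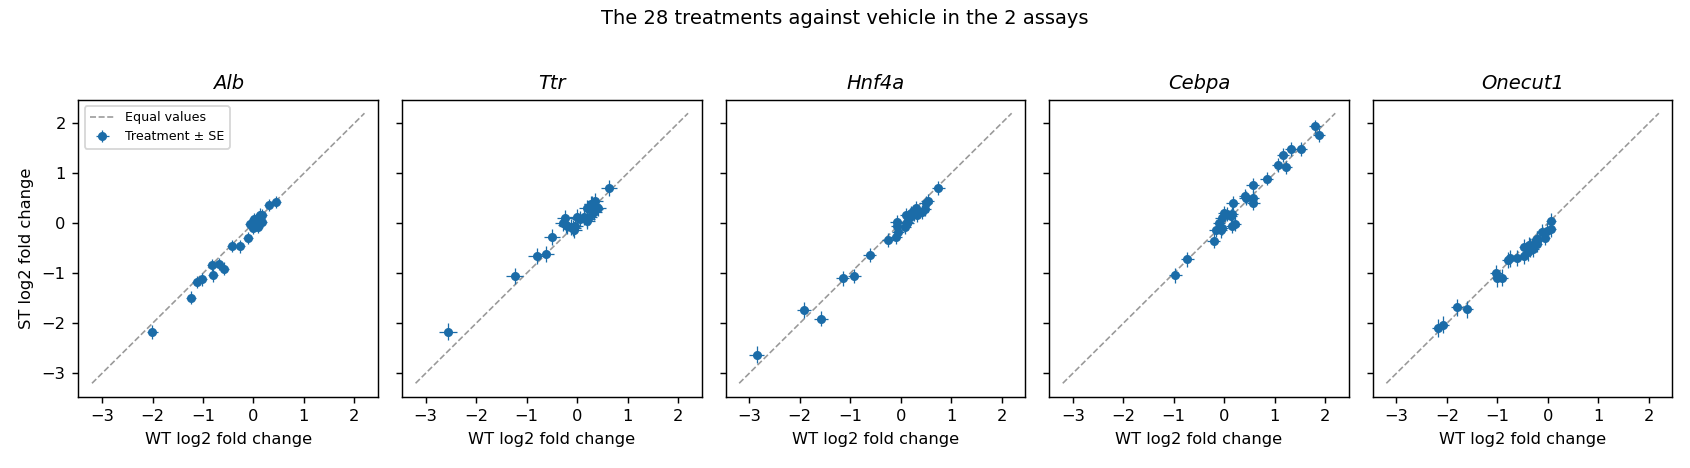
L2FC ± SE of the 28 treatments in the WT (horizontal) and ST (vertical) assay for the 5 members that both hold, with the line of equal values. Points lie within 0.39 of the line.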

How the data were processed

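Lysates of the same wells were measured by TempO-Seq in the WT and the ST assay (372 libraries). The authors deposited read counts per probe, not normalized; per the study's methods and the submitters' processing notes, reads were mapped to rn6 with STAR 2.5.3a, with up to 2 mismatches. Counts of probes of 1 gene were added. After genes averaging under 10 counts were removed, the 10191 WT genes left were fitted with edgeR 4.0.16 (R 4.3.3; TMM, quasi-likelihood F test) over all wells with group and batch as terms, and p-values were adjusted by Benjamini-Hochberg over all genes of a contrast, with calls at 0.05. The SE was taken from the L2FC and its F statistic. DESeq2 1.42.0, other scalings, filters, batches, plates, the ST assay and leaving out replicates were alternatives. On simulated counts for 10191 genes the edgeR step recovered 185 of 200 genes changed 2-fold, with 10 false calls. Samples were grouped by chemical, concentration, batch and assay as their titles give them. The batches, each 1 rat, are the block of the design.

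All members are named; for each, up to 3 treatments with the lowest and up to 3 with the highest L2FC among calls of the same sign in both batches are given in full or with L2FC and SE, treatments with at least 6 members called are described, and for each list up to 2 genes called lower and up to 2 called higher in the most treatments, ties included; some genes that this rule names are not reported here. Other genes' values stand beside these where a treatment is described. Likeness is Pearson's r. Members and lists were chosen with earlier results of these data known. Promoters are RefSeq windows of GRCr8, matched by symbol; Foxa1, Onecut1 and Prox1 have no entry in the table used.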

Additional observations from a re-analysis of the deposited data

Results flagged for a closer look

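Differences between the batches, each 1 rat, were tested as batch 2 minus batch 1 L2FC by edgeR's interaction term (adjusted p under 0.05), and 22 results passed. For Onecut1 they were -0.46 after Caffeine at 10000 µM, -0.674 after Diclofenac at 400 µM, -0.634 and -0.534 after Doxorubicin at 0.08 and 2 µM, -0.567 after Isoniazid at 10000 µM, -1.007 after Ketoconazole at 15 µM, -1.367 after Ranitidine at 4000 µM and -0.634 after Sulfasalazine at 100 µM. Onecut1 further gave -0.666 and -0.767 after valproic acid at 400 and 10000 µM and -0.691 and -0.786 after WY14643 at 8 and 200 µM. All 12 are negative and share the vehicle wells of each batch, where Onecut1 stood at 59.2 TMM-scaled CPM in batch 1 and 95.2 in batch 2, and the part of the vehicle wells in these differences was not tested.

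Alb gave -0.571 after Caffeine at 10000 µM, -0.636 after Ranitidine at 4000 µM and -0.645 after valproic acid at 10000 µM. Ttr gave 1.009 after Acetaminophen at 10000 µM. Cebpa gave -0.738 after Indomethacin at 300 µM and -0.829 after Sulfasalazine at 100 µM, and Foxa1 gave -0.708 after Indomethacin at 300 µM and -0.613 after valproic acid at 10000 µM. Prox1 gave -0.614 after Caffeine at 10000 µM and -0.718 after valproic acid at 10000 µM. Animal, preparation and run cannot be told apart in these differences. Plate cannot be told apart either for Acetaminophen, Indomethacin, Ketoconazole, Sulfasalazine and WY14643, whose plate in batch 1 held no vehicle wells. Dixon's test on the 6 vehicle and the 6 medium wells of batch 2, made for each member (16 tests), found 0 wells standing apart, where chance gives about 1 in 20.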

How the results depend on the processing

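The 59 lower calls fell to 24 and the 41 higher calls to 8 where an absolute L2FC of at least 1 was asked for. Lower calls numbered 39 in batch 1 alone and 39 where both batches had to call the pair. Leaving out a replicate gave 52 to 60 lower and 31 to 36 higher calls. The block is the batch: without it the calls were 55 lower, 39 higher, 0 for medium and 70 for high against low concentration, and 94 of the 100 calls against vehicle were kept. The 73 calls of high against low concentration fell to 29 with an absolute L2FC of at least 1, and leaving out a replicate gave 61 to 65. The 1 call for medium became 0 without the filter on low counts, with an absolute L2FC of at least 1, in batch 1 alone, in both batches, without the medium library with the fewest reads and with any replicate left out (0 to 0). It became 2 in batch 2 alone and 6 with only the wells compared, settings whose shares over all genes are not given here. In the ST assay 1 member, Ttr, was called (0 of those 5 in WT). The cause of these shifts was not tested, except that fewer wells or a stricter rule were used where the setting says so. Of 608 alternative values for 39 named results, 573 kept direction and call, 35 lost the call and 0 reversed, but these were chosen among calls of the same sign in both batches and so could not reverse in either batch alone. Of all 100 calls, batch 1 alone lost 27, with 1 of opposite sign, and batch 2 alone lost 7, also with 1 of opposite sign. Batch 2 with vehicle of the same plate lost 15 and gained 12, with 0 of opposite sign, and 6 of the named results were among those lost. The batch by treatment interaction was run in 1 setting only. The effect of depth on the calls was not tested, and the fewest reads for a member in a well were 33, for Onecut1.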
